A study of Mus musculus with 847 samples.

Results

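Mki67, Top2a, Cdk1, Ccnb1, Nusap1, Ccna2, Birc5 and Ube2c are 8 genes that are transcribed mainly in cells preparing for or passing through mitosis. They were taken by name, and all 8 had a row among the 21076 genes of the count table. RNA was sequenced from 15 dissected brain regions of 59 C57BL/6JN mice, an inbred laboratory strain, in 847 libraries with 51 to 59 per region. The mice were 5 females and 5 males at each of 3, 12, 15 and 18 months, 5 females and 6 males at 21 months, 5 males at 26 months and 3 males at 28 months. The labels name no mutant allele, transgene or treatment in any group. Each library is a bulk extract of homogenised tissue from a single mouse, so a lower level can come from fewer cells with the transcript or from less of it per cell, and these cannot be told apart. The question put to the genes was where in the brain they were highest and how their level changed from young to old mice.

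Cell division is driven by cyclin-dependent kinases, which are switched on by cyclins and switched off when the cyclins are destroyed. Cdk1 is the kinase of mitosis, Ccna2 (cyclin A2) and Ccnb1 (cyclin B1) are its partners, and Ube2c is the ubiquitin-conjugating enzyme with which the anaphase-promoting complex marks the cyclins for destruction. Top2a (DNA topoisomerase II alpha) untangles the sister chromatids, Mki67 (the Ki-67 antigen) coats mitotic chromosomes, Birc5 (survivin) belongs to the chromosomal passenger complex and Nusap1 binds spindle microtubules. In the adult mouse brain, cells that divide include stem cells and transit amplifying progenitors of the subventricular zone and the dentate gyrus of the hippocampus, oligodendrocyte precursors throughout the brain, and small numbers of microglia and endothelial cells.

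Many promoters of mitotic genes hold a CHR element, bound by the DREAM and MuvB complexes, and CCAAT boxes, bound by NF-Y. Stretches are printed below for the 4 genes with a CHR match in their window, as a description of sequence. Any part of these elements in the results that follow was not tested. RefSeq promoter windows (build GRCm38.p6) were given for 7 of the 8 genes, all but Ccna2. Within the 250 bases before the annotated start, TTTGAA or TTCGAA on either strand (CHR) was found in 4 of the 7 (Mki67, Top2a, Cdk1 and Ube2c) and CCAAT on either strand in 5 (the same 4 and Ccnb1). Of all 32851 promoter windows of that length, 17.1% held a CHR match, 33.8% a CCAAT match and 6.02% both. Neither match was found for Birc5 or Nusap1. For Nusap1 all 250 bases of the window lay in annotated exons or its annotated gene span, so that window may not be its promoter. A match that overlaps another was counted as its own. The stretches below run 5′ to 3′ on the strand of the gene, end before the first annotated exon base and have CHR and CCAAT matches in capitals. They lie at chr7:135716451-135716610 (minus strand, Mki67), chr11:99024200-99024359 (minus, Top2a), chr10:69352939-69353098 (minus, Cdk1) and chr2:164769738-164769897 (plus, Ube2c).
Mki67: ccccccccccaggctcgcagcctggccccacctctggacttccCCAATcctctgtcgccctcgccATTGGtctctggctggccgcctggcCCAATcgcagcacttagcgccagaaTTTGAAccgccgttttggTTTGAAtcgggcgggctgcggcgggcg
Top2a: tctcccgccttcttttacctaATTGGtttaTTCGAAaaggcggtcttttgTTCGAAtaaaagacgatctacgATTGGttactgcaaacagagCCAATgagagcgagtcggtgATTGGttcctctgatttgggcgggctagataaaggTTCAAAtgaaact
Cdk1: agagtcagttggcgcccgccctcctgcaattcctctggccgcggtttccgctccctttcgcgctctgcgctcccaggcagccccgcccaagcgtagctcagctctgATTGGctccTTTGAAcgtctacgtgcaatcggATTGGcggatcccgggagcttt
Ube2c: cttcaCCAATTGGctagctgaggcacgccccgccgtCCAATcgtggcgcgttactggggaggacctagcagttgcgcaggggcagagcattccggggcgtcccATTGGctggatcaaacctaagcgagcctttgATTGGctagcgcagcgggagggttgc
Mki67 held 2 TTTGAA matches, at 116 and 98 bases before its start, downstream of 3 CCAAT matches. In Top2a, 3 of 4 CHR matches of the window lie in the printed stretch, at 140, 120 and 23 bases before the start. The single CHR match in the window of Ube2c lies outside the printed stretch, which shows 5 of its 6 CCAAT matches. A match is a description of the letters and was not tested as a binding site.

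The libraries held between 481444 and 26756735 counted reads (median 6716030), and 55 had fewer than 2000000. Levels are given as library-scaled counts (CPM, the gene's reads scaled to a fixed library total), and 3 reads, the limit that a count of 0 allows, were worth 0.491 CPM in the median subventricular zone library and 6.23 CPM in the shallowest. No 2 libraries held identical counts. By correlation of their expression profile, 17 libraries were nearer to the mean of another region than to their own, among them subventricular zone of mouse 15 (12 months) and mouse 35 (18 months), both nearest to caudate putamen, and corpus callosum of mouse 15, nearest to motor cortex. Entorhinal cortex of mouse 52 stood furthest off, with a correlation of 0.944 to medulla against 0.557 to its own region. Region labels were checked against marker genes. Genes picked as medulla markers were higher in pons (median 22.6 CPM) than in medulla (10.2 CPM). Those picked for pons were higher in medulla (28.6 CPM) than in pons (6.63 CPM), so these markers did not separate the labels of medulla and pons. Subventricular zone was the highest of the regions in the summed level of 6 ependymal genes (median 229 CPM) and ranked 3 in 14 neuroblast genes (919 CPM), and corpus callosum ranked 3 in 7 genes of mature oligodendrocytes (21081 CPM), after pons and medulla. Corpus callosum libraries also carried striatal projection neuron genes at 1220 to 9010 CPM and subventricular zone libraries at 444 to 6918 CPM, against 6545 to 12412 CPM in caudate putamen (a region they adjoin). Genes of choroid plexus, which hangs in the lateral ventricle, were also present: a list of 6 epithelial genes summed to 37.0 to 9020 CPM in subventricular zone libraries (median 303) and 4.56 to 18452 CPM in corpus callosum libraries (median 512), against 571 to 12227 CPM in choroid plexus itself (median 6003). Results below are given without the libraries nearest to another region where that changed them.

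The summed level of the 8 genes had its highest median in subventricular zone, the layer lining the lateral ventricle, and its next highest in corpus callosum, the white matter tract joining the hemispheres. It was 7.30 to 116 CPM in the 55 subventricular zone libraries, with a median of 36.5 CPM. In the 57 corpus callosum libraries the sum was 16.2 to 76.8 CPM, with a median of 28.5 CPM. The medians of the other 13 regions lay between 14.5 CPM in caudate putamen and 18.3 CPM in entorhinal cortex, and the ranges of neighbouring regions in that order overlapped. Much of the summed level outside the top 2 regions was Ccna2, which made up 75.7% of the members' reads in thalamus, 36.3% in subventricular zone and 40.3% in corpus callosum. Without Ccna2 the median sum was 22.0 CPM in subventricular zone, 15.5 CPM in corpus callosum and 3.59 to 7.40 CPM elsewhere.

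**Figure D1:**
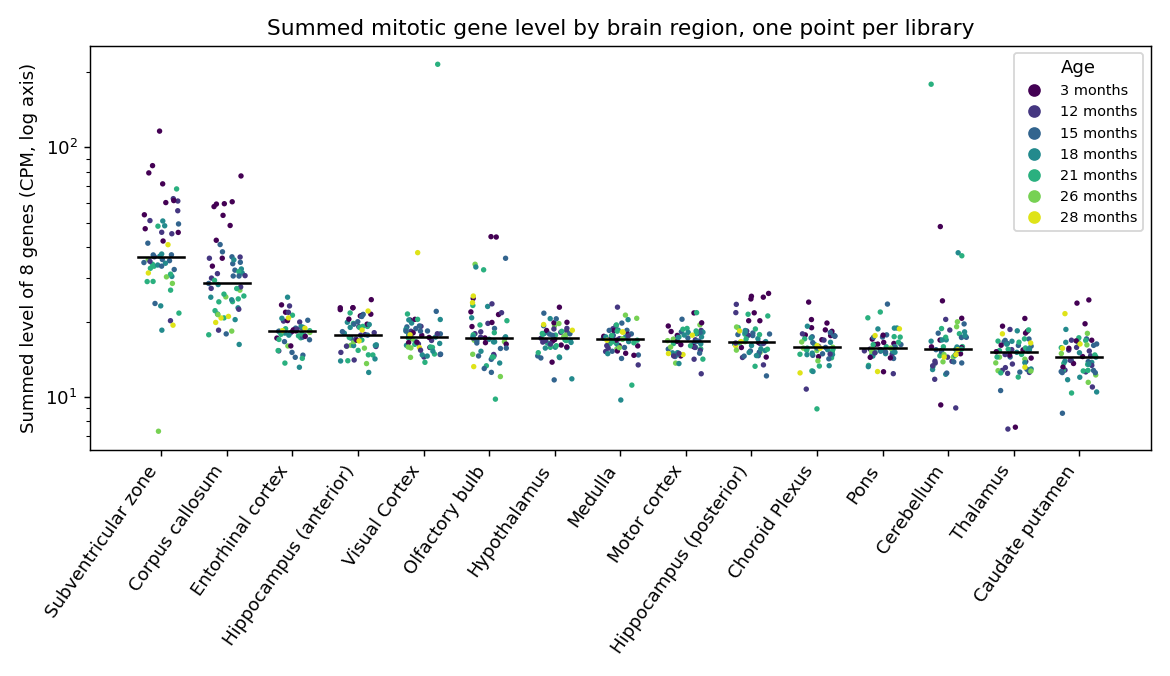
Summed level of the 8 genes in CPM (log axis) in each of 847 libraries, by region and coloured by age, with a black bar at the median of the region. Subventricular zone (36.5 CPM) and corpus callosum (28.5 CPM) have the 2 highest medians, their highest points are young mice, and single libraries of visual cortex (215 CPM) and cerebellum (179 CPM) stand far above the rest of their region.

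Ccna2 differed from the other members in being present everywhere. Its level ranged from a median of 9.70 CPM in caudate putamen to 14.7 CPM in subventricular zone, and no library of the 847 lacked it. Per kilobase of exon, Ccna2 averaged 3.75 ± 0.775 CPM in subventricular zone (SD, n = 55), against 0.971 ± 0.690 for Ube2c, 0.899 ± 0.413 for Nusap1, 0.887 ± 0.599 for Top2a, 0.812 ± 0.536 for Ccnb1, 0.523 ± 0.353 for Mki67, 0.443 ± 0.305 for Birc5 and 0.416 ± 0.256 for Cdk1. The libraries did not record strand, and 510 bases (12.5%) of the Ccna2 exons are shared with Exosc9, an exosome subunit gene on the opposite strand, so reads there cannot be assigned to either gene. Exosc9 itself was at 36.9 to 56.2 CPM on average in the 15 regions. Ube2c shares 592 bases (22.8%) of its exons with Tnnc2 and Nusap1 172 bases (4.24%) with Oip5, both on the opposite strand.

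The gene coordinates, on GRCm38 with GENCODE M21, are chr7:135689784-135716361 for Mki67, chr11:98992943-99024189 for Top2a, chr10:69335146-69352938 for Cdk1, chr13:100778650-100786570 for Ccnb1, chr2:119618298-119651244 for Nusap1, chr3:36564865-36572150 for Ccna2, chr11:117849251-117855743 for Birc5 and chr2:164769898-164778822 for Ube2c. Nusap1, Birc5 and Ube2c lie on the plus strand and the other 5 on the minus strand, and counts were summed over whole genes.

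The other 7 genes differed in the order of the regions, and Mki67, Top2a, Ccnb1 and Ube2c had their 2 highest medians in subventricular zone and corpus callosum. Mki67 had medians of 4.52 CPM in subventricular zone and 3.53 in corpus callosum, followed by 3.23 CPM in anterior and 2.24 CPM in posterior hippocampus, the region of the dentate gyrus. Top2a differed more between regions, from 6.42 and 4.69 CPM to 1.19 CPM in olfactory bulb and 0.690 CPM or less in every other region. Ccnb1 had medians of 2.95 and 2.55 CPM, and next to them 1.38 CPM in motor cortex. Medulla had the highest median of Birc5 (1.43 CPM, against 1.27 in subventricular zone) and the next highest of Cdk1 after subventricular zone (1.4 CPM, against 1.98), and corpus callosum came after it with 1.30 CPM of Cdk1 and, behind hypothalamus too, 0.936 CPM of Birc5. For Nusap1 cerebellum (2.64 CPM) and olfactory bulb (2.61 CPM) came after subventricular zone (3.50 CPM), and corpus callosum (2.00 CPM) ranked 8, close below anterior hippocampus (2.19 CPM), hypothalamus (2.11 CPM), posterior hippocampus (2.11 CPM) and entorhinal cortex (2.00 CPM). Cdk1 was at 0 counts in 38 of 59 motor cortex libraries and 34 of 56 visual cortex libraries, where its median was 0. These levels near the limit of a count of 0 do not order the remaining regions.

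Fits of each pair of regions with age and sex as terms compared the levels. The filter on low counts took both regions of a pair together, so a gene could pass through the region where it was high. All 8 genes were tested in every pair, although 40 pairs of a gene and 1 of the 13 other regions did not pass in that region alone. The counts of calls therefore include genes let in by the region where they were high. Subventricular zone was higher than the other region in 110 of 112 comparisons (8 genes against 14 regions), where 43.8% of all tested genes were called higher over the same pairs. Outside corpus callosum, the called differences ran from 0.13 (log2, SE 0.05) for Ccna2 against visual cortex to 4.28 (SE 0.16) for Top2a against motor cortex. The exceptions were Ccnb1 against corpus callosum (0.06, SE 0.11, adjusted p = 0.622) and Birc5 against medulla (-0.07, SE 0.13, adjusted p = 0.569). Against corpus callosum the other differences were 0.60 for Nusap1 (SE 0.08), 0.58 for Top2a (SE 0.12), 0.52 for Ube2c (SE 0.14), 0.39 for Cdk1 (SE 0.14), 0.35 for Birc5 (SE 0.13), 0.25 for Mki67 (SE 0.12) and 0.18 for Ccna2 (SE 0.04). The Mki67 difference was called without the mouse as a block (adjusted p = 0.0467) and not with it (0.15, adjusted p = 0.294).

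Corpus callosum was higher in 92 of 104 comparisons with the other 13 regions, against 43.2% of all tested genes, and lower in 3. The same filter applied, so genes too low in the other region could be tested here through corpus callosum. Top2a, Ccnb1, Mki67 and Ube2c were higher in corpus callosum than in each of the 13. Nusap1 was lower there than in cerebellum (log2 difference -0.39, SE 0.11) and olfactory bulb (-0.19, SE 0.08), and Birc5 was lower than in medulla (-0.47, SE 0.11). Ccna2 did not pass against visual cortex (-0.04, SE 0.05) or entorhinal cortex (0.04, SE 0.04). With the mouse as a block, Birc5 against hypothalamus was also called (0.28, adjusted p = 0.0208, against 0.22 and 0.0836 without).

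In subventricular zone, the level of all 8 genes fell with age. At 3 months their summed level was 66.1 ± 22.6 CPM (SD, n = 10), against 45.8 ± 13.6 CPM at 12 months (n = 9). Mice of 15, 18 and 21 months were close to each other, with 36.0 ± 6.52 (n = 10), 34.8 ± 10.4 (n = 9) and 35.4 ± 13.4 CPM (n = 10). The oldest males had 25.4 ± 12.4 CPM at 26 months (n = 4) and 30.5 ± 10.7 CPM at 28 months (n = 3). The 3-month libraries, at 42.2 to 116 CPM, lay above every library of 26 months (highest 35.6 CPM) and 28 months (highest 40.8 CPM) and overlapped those of each age between. The separation of 40.8 from 42.2 CPM is within counting error. In a fit of age in months with sex as a term, all 8 genes had a negative slope with an adjusted p below 0.05, where 3.67% of the 14701 tested genes were called falling. The p-values rest on the spread between mice. The slope of the summed level was -0.052 log2 per month (SE 0.0092), described here without a test.

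Of the cyclins and their kinase, Ccnb1 in subventricular zone was 3.32 to 12.8 CPM at 3 months with a median of 4.98. At 26 months no library exceeded 2.85 CPM and at 28 months none exceeded 3.24 CPM. The measured values of neither group overlapped the youngest, but the separation of 3.24 from 3.32 CPM is within counting error. The 26-month library of mouse 14 had 0 counts in a shallow library, which cannot place it below the youngest. The slope of Ccnb1 was -0.064 log2 per month (SE 0.0118, adjusted p = 0.00013). Cdk1 was 1.60 to 6.82 CPM at 3 months (median 2.80) and 0.594 to 2.69 CPM at 28 months (median 1.25), which overlapped, and its slope was -0.056 (SE 0.0123, adjusted p = 0.00133). Ccna2 had the shallowest slope, -0.021 (SE 0.0042, adjusted p = 0.000314), from 15.8 to 25.9 CPM at 3 months (median 17.9) to 13.5, 10.1 and 17.1 CPM in the 3 libraries of 28 months. Exosc9, which shares exon bases with Ccna2, had a slope of 0.0013 (SE 0.0023, adjusted p = 0.807) in the same libraries.

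Of the chromosome and spindle genes, Top2a in subventricular zone was 7.36 to 30.5 CPM at 3 months with a median of 14.1. The 4 libraries of 26 months held 4.52, 3.98, 4.94 and 0 CPM, and the 3 of 28 months held 4.74, 3.37 and 4.88 CPM. All 7 old libraries lay below all 10 of the youngest, and the slope was -0.074 (SE 0.0115, adjusted p = 7.05e-06), the steepest of the 8. The library at 0 is mouse 14, which had 548278 reads, 4 counts of Ccna2 and 0 counts of each other member, too few reads to tell an absent transcript from a low level. Mki67 was 4.72 to 17.9 CPM at 3 months (median 8.69). At 26 months Mki67 was 2.97, 3.52, 4.20 and 0 CPM, and at 28 months 4.61, 1.58 and 5.37 CPM, of which only the last overlapped the youngest group. The slope of Mki67 was -0.059 (SE 0.0128, adjusted p = 0.00118).

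Nusap1 had the smallest adjusted p of the 8 in subventricular zone, with a slope of -0.054 (SE 0.0077, adjusted p = 1.13e-06), from a median of 5.49 CPM at 3 months to 2.48 CPM at 26 and 1.62 CPM at 28 months. Birc5 was the least certain of the 8, with a slope of -0.054 (SE 0.0143, adjusted p = 0.00923) and 0.870 to 4.25 CPM at 3 months against 0.594 to 1.95 CPM at 28 months. For Ube2c, the enzyme of cyclin destruction, medians went from 4.23 CPM at 3 months to 1.62 CPM at 28 months, and the slope was -0.065 (SE 0.0144, adjusted p = 0.00144). Without mouse 25, a 3-month male with the highest summed level of the region (116 CPM), Birc5 was no longer called (-0.043, adjusted p = 0.0806) and the other 7 were.

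When each later age in subventricular zone was set against the shared 3-month libraries, the 8 genes gave 0, 2, 3, 7, 3 and 2 calls of a lower level in the successive ages from 12 months upwards. The shares of all tested genes called lower at those ages were 1.68%, 0.0884%, 0.218%, 1.24%, 1.19% and 0.639%. At 12 months no gene was called by edgeR, 6 of the 8 had an unadjusted p below 0.05, and the log2 differences ran from -0.22 for Ccna2 (SE 0.10) to -0.75 for Ccnb1 (SE 0.27). At 21 months Top2a was lower by a log2 difference of -1.25 (SE 0.27, adjusted p = 0.00517) and Nusap1 by -0.86 (SE 0.17, adjusted p = 0.00256), and Birc5 was the gene not called (-0.85, SE 0.31, adjusted p = 0.13). Over the 6 ages 17 of 48 comparisons were called, where 0.843% of all were, and this count was 5 without mouse 25 and 7 in males alone. With the 3-month libraries left out, a choice made after seeing the data, 1 of the 8 slopes was called (Nusap1, -0.046, SE 0.0128, adjusted p = 0.0389), where 0.689% of genes were called falling. The other 7 slopes over 12 to 28 months were still negative, from -0.013 for Ccna2 (SE 0.0069) to -0.061 for Top2a (SE 0.0204, adjusted p = 0.109).

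**Figure D2:**
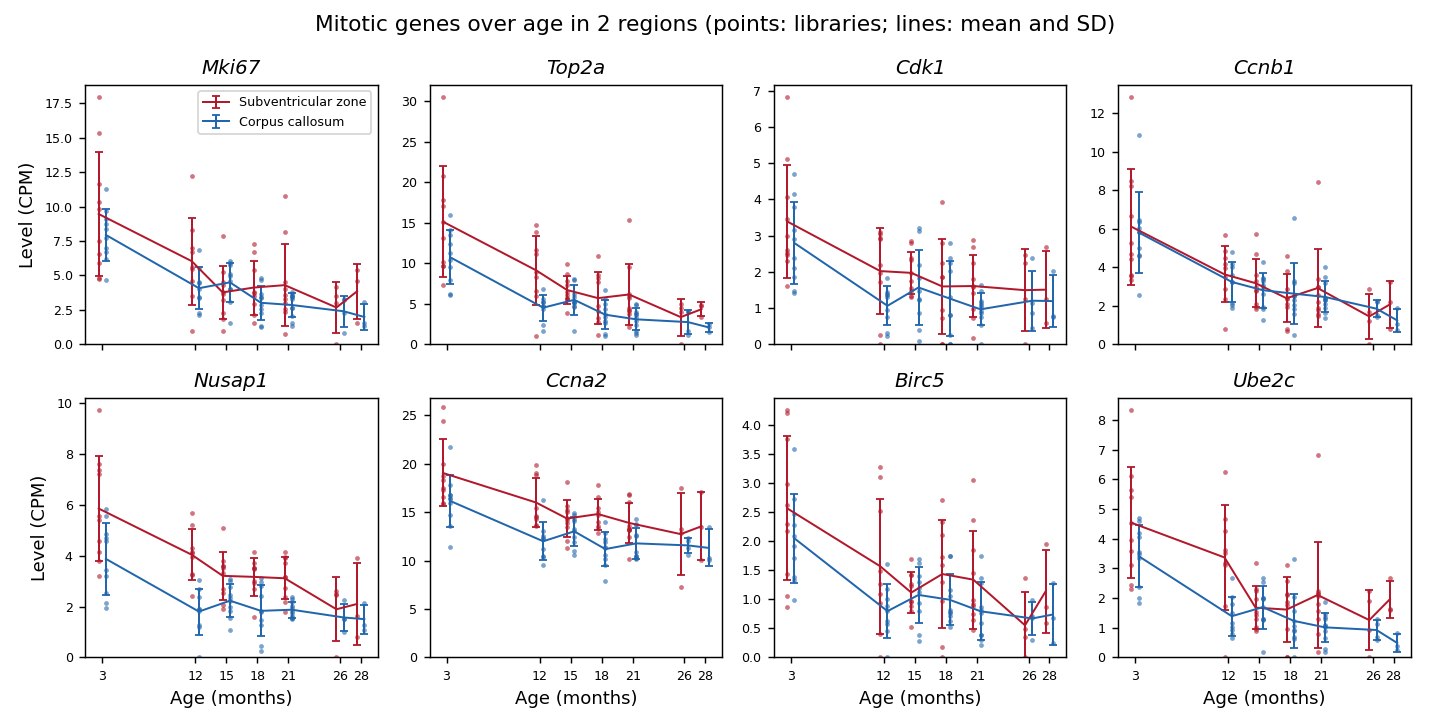
Level in CPM of each of the 8 genes against age in months, in subventricular zone (red, 55 libraries) and corpus callosum (blue, 57 libraries). Points are libraries and lines join the mean at each age with its SD. In both regions the means are highest at 3 months, for example 15.1 and 10.7 CPM for Top2a, and Ccna2 changes least in proportion.

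In corpus callosum, all 8 genes fell with age as well, and 6 of them were called lower at 12 months. At 3 months their summed level was 52.8 ± 13.0 CPM (SD, n = 10), against 28.9 ± 5.79 CPM at 12 months (n = 9). Mice of 15, 18 and 21 months had 32.4 ± 6.33 (n = 10), 25.8 ± 6.02 (n = 10) and 24.8 ± 3.88 CPM (n = 11). The oldest males had 22.9 ± 3.79 CPM at 26 months (n = 4) and 20.6 ± 0.591 CPM at 28 months (n = 3). The 3-month libraries, at 33.4 to 76.8 CPM, lay above every library of 21, 26 and 28 months and overlapped those of 12, 15 and 18 months. All 8 slopes were negative with an adjusted p below 0.05, where 8.95% of the 14432 tested genes were called falling. The slope of the summed level was -0.053 log2 per month (SE 0.0058).

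Top2a in corpus callosum was 6.07 to 16.0 CPM at 3 months with a median of 10.9. At 26 months it was 1.20, 1.70, 4.07 and 3.98 CPM and at 28 months 2.56, 2.18 and 1.53 CPM. Every library of 21, 26 and 28 months lay below the youngest group, and the slope was -0.089 (SE 0.0101, adjusted p = 4.17e-10). Mki67 was 4.68 to 11.3 CPM at 3 months (median 8.04). At 26 months Mki67 was 2.26, 0.850, 3.22 and 3.27 CPM, and at 28 months 1.35, 3.08 and 1.53 CPM, again all below the youngest. The slope of Mki67 was -0.078 (SE 0.0083, adjusted p = 7.26e-11), the most certain of the 8 in this region.

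Ube2c had the steepest slope in corpus callosum, -0.090 (SE 0.0117, adjusted p = 1.94e-08). It was 1.84 to 4.69 CPM at 3 months (median 3.51) and 0.808, 0.397 and 0.255 CPM at 28 months, the last of these a single read. The ratio of the means at 3 and 28 months was 7.01 for Ube2c, 5.14 for Top2a, 4.68 for Ccnb1, 4.00 for Mki67, 2.77 for Birc5, 2.57 for Nusap1, 2.34 for Cdk1 and 1.43 for Ccna2. The slopes of the other genes were -0.075 for Ccnb1 (SE 0.0088), -0.061 for Birc5 (SE 0.0116), -0.058 for Cdk1 (SE 0.0153), -0.054 for Nusap1 (SE 0.0087) and -0.022 for Ccna2 (SE 0.0038), with adjusted p from 1.59e-09 (Ccnb1) to 0.00424 (Cdk1).

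At 12 months only 34 of 14432 genes in corpus callosum were called lower than at 3 months, and 6 of the 8 members were among them. They were Mki67 (log2 difference -1.0, SE 0.20, adjusted p = 0.0054), Top2a (-1.26, SE 0.25, adjusted p = 0.00386), Ccna2 (-0.46, SE 0.09, adjusted p = 0.00392), Nusap1 (-0.93, SE 0.21), Birc5 (-1.25, SE 0.28) and Ube2c (-1.19, SE 0.28). Cdk1 (-1.38, SE 0.37, adjusted p = 0.083) and Ccnb1 (-0.80, SE 0.21, adjusted p = 0.0666) were not called at that age. By the labels, mice of 12 and 26 months are numbered below 16, and those of 3, 15, 18 and 21 months from 16 to 56. Whether anything else differs between these number series is not given, so in both regions a 12-month difference cannot be told apart from it. In order of age from 12 months upwards, 6, 6, 7, 8, 7 and 7 members were called, where the shares of all tested genes called lower were 0.236%, 0.464%, 1.88%, 2.79%, 2.03% and 3.92%. All of these contrasts share the 10 libraries of 3 months, and 41 of the 48 were called in all, where 1.89% of all were. In males alone 26 were called.

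Without the 3-month libraries, 3 of the 8 slopes in corpus callosum were called, where 3.38% of tested genes were called falling. These were Mki67 (-0.065, SE 0.0164, adjusted p = 0.00647), Top2a (-0.069, SE 0.0199, adjusted p = 0.0207) and Ccnb1 (-0.059, SE 0.0164, adjusted p = 0.0151). Ube2c had a slope of -0.071 (SE 0.0239, adjusted p = 0.0517) and Nusap1 of -0.029 (SE 0.0151, adjusted p = 0.247). Cdk1 (-0.0085, SE 0.029), Ccna2 (-0.0072, SE 0.0061) and Birc5 (-0.016, SE 0.0212) were not called over 12 to 28 months, with adjusted p of 0.537 to 0.908.

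Outside these 2 regions most genes were too low or changed too little to be called. Of 120 pairs of a gene and a region, 40 did not pass the filter on low counts and are not tested, and 23 of the 80 tested were called, 22 falling and 1 rising. Over the 15 regions 5.1% of all tests were called falling and 6.37% rising. The 13 other regions gave 64 tested pairs, of which 6 were called falling and 1 rising. Members that pass a filter in only some libraries of a region are those that are high there, so the tested pairs do not stand for all. In caudate putamen, cerebellum, entorhinal cortex, hypothalamus and thalamus, 0 of the 22 tested members were called by edgeR or by DESeq2, and 0 had an unadjusted edgeR p below 0.05.

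**Figure D3:**
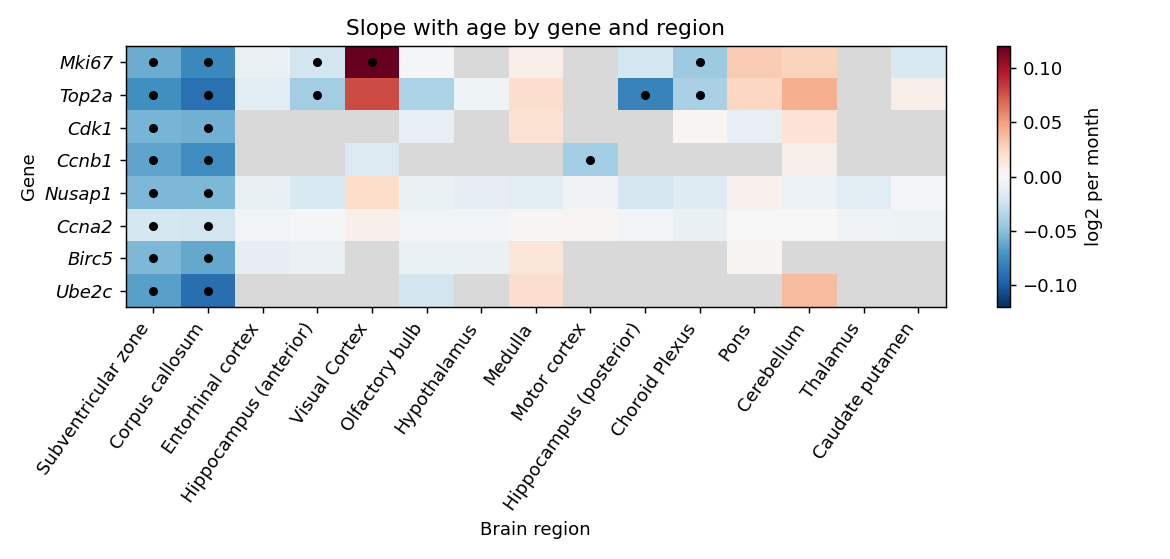
Slope with age (colour, log2 per month) of each gene (rows) in each of 15 regions (columns), with a dot where the adjusted p is below 0.05 and grey where the gene was not tested. Subventricular zone and corpus callosum hold 8 dots each, and 7 dots lie in the other 13 regions.

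The hippocampus, which holds the dentate gyrus, gave 3 of the 6. Top2a in posterior hippocampus was 0.711 to 2.56 CPM at 3 months (median 1.58) and 0.422, 0.460 and 0.691 CPM in the 3 libraries of 28 months, which did not overlap the youngest although every other age did. In the median library of this region 3 reads were worth 0.487 CPM, so the separation of 0.691 from 0.711 CPM is within counting error. The slope of Top2a there was -0.080 (SE 0.0135, adjusted p = 2.93e-05). In anterior hippocampus Top2a had medians of 1.51 CPM at 3 and 1.34 CPM at 28 months, overlapping at every age, with a slope of -0.042 (SE 0.0133, adjusted p = 0.0285) that was lost in males alone, in mice 16 to 56 alone, with DESeq2, with depth as a covariate, without the libraries nearest to another region and without the 3-month libraries (-0.012, adjusted p = 0.862). Mki67 in anterior hippocampus was 2.68 to 7.15 CPM at 3 months (median 3.88) and 2.70 to 3.70 CPM at 28 months, and the library range of 26 months (1.29 to 2.29 CPM) alone lay below the youngest. The slope was -0.022 (SE 0.0061, adjusted p = 0.0122), lost in males alone (adjusted p = 0.083), in mice 16 to 56 alone (adjusted p = 0.0999) and without the 3-month libraries (-0.018, adjusted p = 0.393). The share of genes called falling was 4.52% in anterior and 2.29% in posterior hippocampus.

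In choroid plexus, the epithelium that makes cerebrospinal fluid, Mki67 was 0.800 to 4.00 CPM at 3 months (median 1.72) and 0.424 to 1.42 CPM at 28 months (median 0.721), which overlapped. Its slope was -0.043 (SE 0.0116, adjusted p = 0.00561), not called in males alone (adjusted p = 0.132) or without the 3-month libraries (-0.013, adjusted p = 0.727). Top2a there had medians of 0.919 CPM at 3 and 0.424 CPM at 28 months and a slope of -0.039 (SE 0.0135, adjusted p = 0.03), not called without the libraries nearest to another region (adjusted p = 0.0721). Choroid plexus called 9.28% of its tested genes falling.

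Ccnb1 in motor cortex was 1.54 to 3.95 CPM at 3 months (median 2.51) against medians of 1.16 CPM at 12 months and 0.784 CPM at 28 months. The 3-month libraries lay above all 8 of 26 and 28 months (highest 1.26 and 0.884 CPM). The slope was -0.042 (SE 0.0106, adjusted p = 0.00383, where 8.89% of genes were called falling), and over 12 to 28 months alone it was 0.0037 (SE 0.0195, adjusted p = 0.951). Motor cortex was also the only region with a call between the sexes: over 3 to 21 months Ccnb1 was lower in 26 males than in 25 females by a log2 difference of -0.60 (SE 0.16, adjusted p = 0.024), where 3.81% of genes there were called. Over the 15 regions 1 of 69 tests of a member for sex was called and 8 had an unadjusted p below 0.05, against 3.01% of all tests called.

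Mki67 in visual cortex was the 1 rising call, with a slope of 0.120 (SE 0.04, adjusted p = 0.0396, where 5.8% of genes were called rising), and it rested on 2 libraries. Mki67 was 61.1 CPM in mouse 48, a 21-month female, and 8.02 CPM in mouse 59, a 28-month male, and 2.74 CPM or less in every other library of the region. Those 2 libraries carried 1775 and 507 CPM of 12 genes of the granulocyte lineage of bone marrow, such as Mpo and Elane, where the other 54 held at most 87.7 CPM. Without them the slope was -0.028 (SE 0.0141, adjusted p = 0.213), and with the granulocyte list as a covariate it was -0.032 (SE 0.0122, adjusted p = 0.0911).

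The granulocyte lineage genes, summed, reached 100 CPM or more in 31 libraries, 17 of olfactory bulb, 10 of cerebellum, 2 of medulla and 2 of visual cortex. The highest was cerebellum of mouse 40, a 21-month female, with 3009 CPM of granulocyte genes and 145 CPM of the 7 mitotic genes without Ccna2, of which Mki67 made up 46.8 CPM. The 48 cerebellum libraries under 100 CPM held at most 8.34 CPM of the 7 genes (median 4.8), against a median of 12.3 CPM in the 10 above, and the ranges overlapped. In olfactory bulb the medians were 6.89 CPM in 41 and 10.8 CPM in 17 libraries, and the ranges overlapped. In subventricular zone the granulocyte list summed to 1.98 to 75.8 CPM (median 5.08) and in corpus callosum to 0.798 to 59.0 CPM (median 2.68). Of its defining genes, Elane was at 0 in 54 of 55 subventricular zone and 56 of 57 corpus callosum libraries and Mpo in 33 and 50, while Prtn3 was at 0 in none of either region (medians 3.61 and 1.75 CPM). Counts of called members in those 2 regions were 8 and 8 with the granulocyte list as a covariate. Whether the RNA came from marrow, blood or dividing cells in the tissue was not tested.

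**Figure D4:**
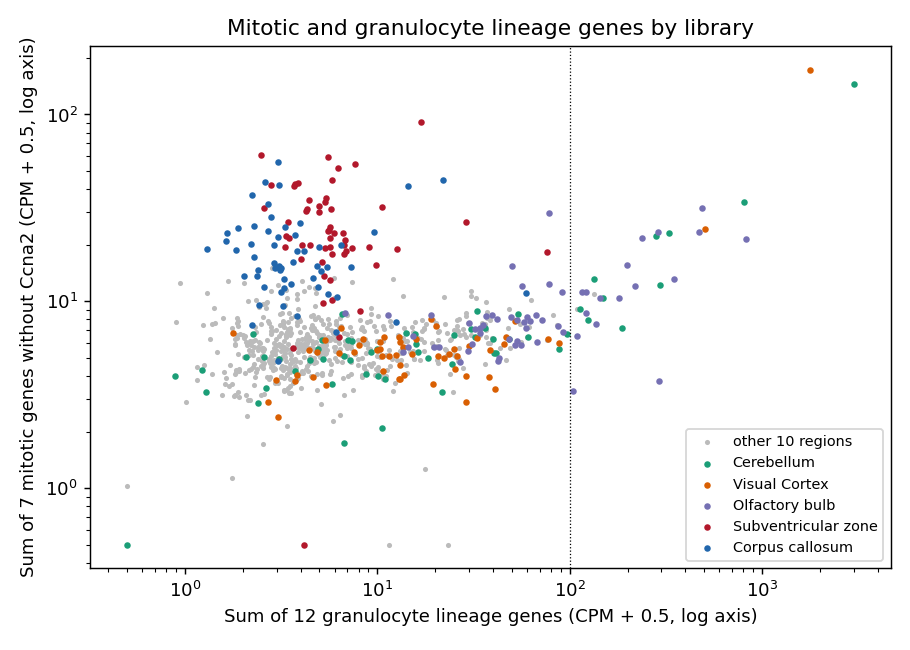
Sum of 7 mitotic genes without Ccna2 against the sum of 12 granulocyte lineage genes, both in CPM + 0.5 on log axes, for 847 libraries coloured by region, with a dotted line at 100 CPM. Libraries of cerebellum, visual cortex and olfactory bulb right of the line include the highest mitotic sums of those regions (145 and 173 CPM in 2 of them), while all subventricular zone and corpus callosum libraries lie left of it.

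Whether the slope itself differed between regions was tested with an age by region term. The filter on low counts again took both regions of a pair together, so a gene could pass through the region where it was high. Mki67 did not pass in motor cortex alone. For subventricular zone minus corpus callosum edgeR called 0 of the 8 genes, 0 had an unadjusted p below 0.05, and the differences ran from -0.0021 for Nusap1 (SE 0.0123) to 0.0228 for Ube2c (SE 0.0186), with adjusted p of 0.811 or more. Their errors are large enough that the 2 regions cannot be called alike. Subventricular zone fell more steeply than 1 of 6 other regions in 5 of 48 comparisons, where 0.641% of all were called: Mki67 (-0.102, SE 0.025), Nusap1 (-0.049, SE 0.0105) and Ccna2 (-0.025, SE 0.0051) against motor cortex, and Nusap1 (-0.048, SE 0.0106) and Ccna2 (-0.019, SE 0.0058) against olfactory bulb. In mice 16 to 56 alone, which leaves out the ages of 12, 26 and 28 months, 1 of these was called. Against caudate putamen the differences in the 8 genes were -0.015 to -0.082 with adjusted p of 0.0727 or more.

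Corpus callosum fell more steeply in 10 of 32 comparisons with 4 regions, where 1.3% of all were called. The same joint filter applied, and Mki67 and Birc5 did not pass in motor cortex alone. Against motor cortex these were Mki67 (-0.115, SE 0.0176), Birc5 (-0.067, SE 0.0165), Nusap1 (-0.046, SE 0.011) and Ccna2 (-0.025, SE 0.0049). Against olfactory bulb they were Mki67 (-0.075, SE 0.0218), Ube2c (-0.069, SE 0.0213), Nusap1 (-0.045, SE 0.0109) and Ccna2 (-0.018, SE 0.0055). Against anterior hippocampus they were Mki67 (-0.052, SE 0.0104) and Ccna2 (-0.021, SE 0.005). Of the olfactory bulb libraries, 17 held at least 100 CPM of the granulocyte list. The slope fits against olfactory bulb were not repeated without them for either region. With the mouse as a block, 3 of the 15 calls were lost: Mki67 and Ube2c of corpus callosum against olfactory bulb (adjusted p = 0.0548 and 0.0877) and Ccna2 of subventricular zone against olfactory bulb (adjusted p = 0.0894).

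Other genes of the cell cycle were read in the same fits. In subventricular zone, 32 of 52 tested genes of a list of other G2 and mitosis genes fell and 1 rose, with a median slope of -0.035, against -0.0001 over all genes tested. The largest falls among those of at least 1 CPM were Pimreg (-0.063, SE 0.0144), Bub1, a spindle checkpoint kinase (-0.060, SE 0.0152), and Cenpa, the centromeric histone (-0.059, SE 0.0113). The gene that rose was Anln (0.022 log2 per month in subventricular zone and 0.025 in corpus callosum), anillin of the cleavage furrow, which mature oligodendrocytes also express, and its level was 42.7 and 94.2 CPM. In corpus callosum, 36 of 49 fell and 1 rose, with a median of -0.039. The summed level of the list in subventricular zone had medians of 362 CPM at 3 and 320 CPM at 28 months.

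The background for these lists is the share of all tested genes called falling, 3.67% in subventricular zone and 8.95% in corpus callosum. Of the genes of DNA replication and S phase, 7 of 35 fell in subventricular zone and none rose, with a median of -0.016, and in corpus callosum 11 of 33 fell, with a median of -0.0078. The largest falls were Rrm2, the ribonucleotide reductase subunit of S phase (-0.056 and -0.073), Uhrf1, a partner of the maintenance DNA methyltransferase (-0.047 and -0.072), and Tyms, thymidylate synthase (-0.022 and -0.026). Of the transcription regulators of the cycle, 2 of 19 fell in subventricular zone, Foxm1 (-0.037, SE 0.0098), an activator of mitotic genes, and Lin9 (-0.020, SE 0.0062), a MuvB subunit, and 5 of 20 fell in corpus callosum, with list medians of -0.0002 and -0.0034. Among the G1 cyclins and kinases 2 of 8 fell in subventricular zone, Ccnd2 (-0.032, SE 0.0048) and Cdc25a (-0.019, SE 0.0057), and Ccnd2 also fell in corpus callosum (-0.038, SE 0.0038). These lists were chosen with results of the same data known and are not independent evidence of direction.

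**Figure D5:**
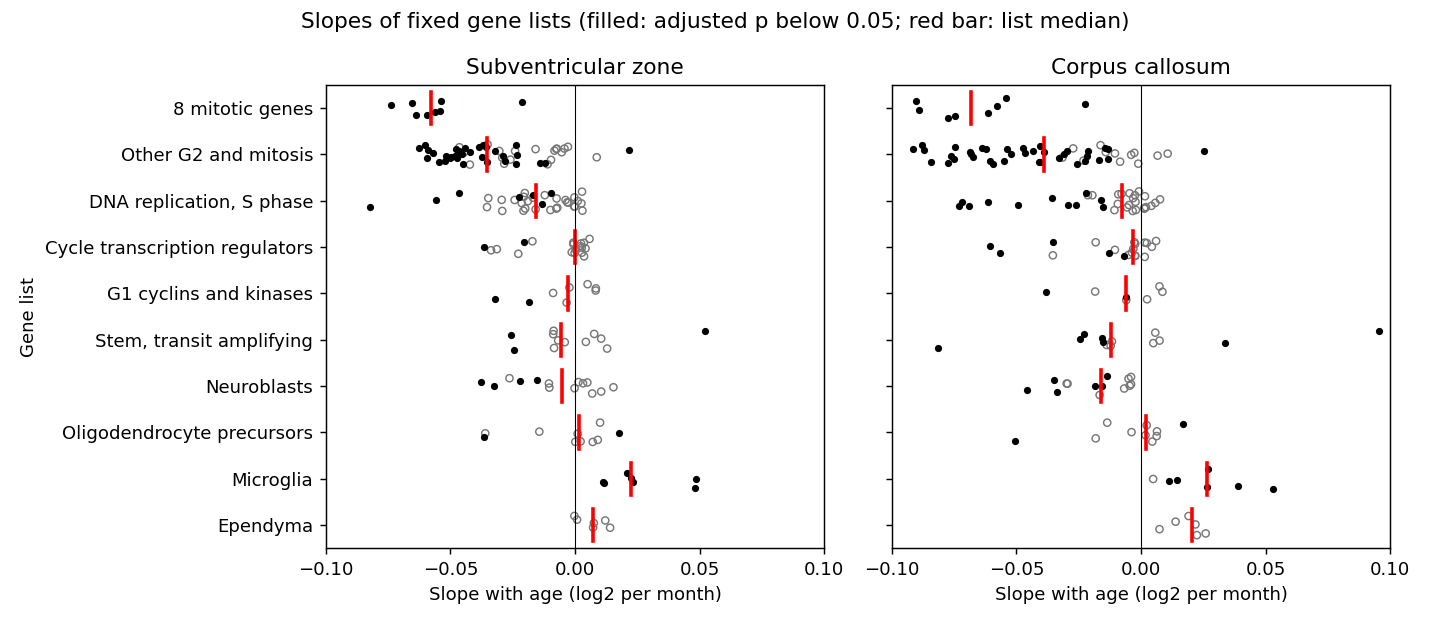
Slope with age (log2 per month) of every tested gene in fixed lists, in subventricular zone (left) and corpus callosum (right). Each point is a gene, filled where the adjusted p is below 0.05, and the red bar is the list median, which is -0.058 and -0.068 for the 8 genes and -0.035 and -0.039 for other G2 and mitosis genes.

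Markers of the cell types that divide in these regions moved in part with the 8 genes, and their counts stand against the same falling shares and against 4.85% (subventricular zone) and 9.64% (corpus callosum) of tested genes called rising. In subventricular zone, 4 of 14 neuroblast genes fell, led by the transcription factors Sox11 (-0.038, SE 0.0044) and Sox4 (-0.033, SE 0.0064) and the long noncoding RNA Dlx6os1 (-0.022, SE 0.0052), and the summed level of the list had medians of 1053 CPM at 3 and 901 CPM at 28 months. Of 12 tested genes of stem cells and transit amplifying progenitors, 2 fell, among them Fabp7 (-0.026, SE 0.0069), a fatty acid binding protein, and Gfap, also an astrocyte gene, rose (0.052, SE 0.0117). Of 10 oligodendrocyte precursor genes, Gpr17, which marks precursors committed to differentiate, fell (-0.036, SE 0.0034), Sox10 rose (0.018, SE 0.0048), and Pdgfra, the receptor that defines these cells and is named here after its value was seen, had a slope of 0.0011 (SE 0.004). In corpus callosum 6 of 14 neuroblast genes fell, Gpr17 fell by 0.051 log2 per month (SE 0.0042), Sox10 rose and Pdgfra had a slope of 0.0045 (SE 0.0037).

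Apart from 1 granulocyte gene, the called markers of other cell types in subventricular zone rose. Of all tested genes, 4.85% were called rising in subventricular zone and 9.64% in corpus callosum. All 7 microglia genes rose in subventricular zone and 6 of 7 in corpus callosum, with Aif1 (0.048, SE 0.0058) and Trem2 (0.048, SE 0.0045) foremost in subventricular zone, and with summed medians of 376 CPM at 3 and 530 CPM at 28 months there and 426 and 617 CPM in corpus callosum. In subventricular zone 4 of 6 tested genes of the erythroid lineage rose, led by the haemoglobins Hbb-bt (0.119, SE 0.0331), Hbb-bs (0.113, SE 0.0336) and Hba-a1 (0.109, SE 0.0335), with summed levels of 7.04 to 34.1 CPM at 3 months and 13.8 to 329 CPM at 26 months. The granulocyte gene Lcn2 fell (-0.124, SE 0.0288) at a mean of 1.14 CPM. Of the astrocyte genes 1 of 6 rose in subventricular zone (Slc1a3, 0.013, SE 0.0036) and 4 of 6 in corpus callosum. No gene of ependyma, endothelium, choroid plexus epithelium, meningeal fibroblasts or striatal projection neurons was called in either region. The 8 striatal genes had negative slopes in both, with medians of -0.018 and -0.013, and with their level as a covariate all 8 members were still called in subventricular zone. The summed choroid plexus list, whose 6 genes were not called for age, had medians in subventricular zone of 334 CPM at 3, 5377 CPM at 26 and 2328 CPM at 28 months, and in corpus callosum of 426, 5459 and 4191 CPM. The ranges at these ages overlapped. With the choroid plexus list as a covariate, a choice made after seeing the data, all 8 members were still called in both regions, with slopes of -0.021 (Ccna2) to -0.073 (Top2a) in subventricular zone and -0.023 (Ccna2) to -0.092 (Ube2c) in corpus callosum. The striatal and choroid plexus lists held no gene called for age, and the microglia, neuroblast and oligodendrocyte precursor lists were not used as covariates. These fits therefore do not show what part other cell types play in the fall of the 8 genes, which was not tested.

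Across libraries of subventricular zone the 8 genes varied together after age and sex were taken out. Over 55 libraries, Pearson's r between residuals of log2(CPM + 0.5) was 0.492 to 0.868 in the 28 pairs, with a median of 0.616, highest for Ccnb1 and Top2a and lowest for Ube2c and Ccna2. The libraries share depth and dissection, so these values are a description. Over the means of 15 regions the same pairs ran from 0.187 for Birc5 and Nusap1 to 0.944 for Ube2c and Top2a.

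The genes most like the summed level included many of the lists above. Among 14189 genes of at least 1 CPM in subventricular zone, the 10 with the highest r over the 15 region means were Aurkb (0.967), Bub1 (0.952), Rrm2 (0.946), Pbk (0.940), Knl1 (0.937), Cdca2 (0.914), Ect2 (0.912), Neil3 (0.904), Plk1 (0.899) and Esco2 (0.893). Over the residuals of 55 subventricular zone libraries they were Rrm2 (0.880), Ckap2l (0.878), Cdca8 (0.842), Pclaf (0.825), Prc1 (0.823), Pou3f2 (0.823), Uhrf1 (0.799), Draxin (0.795), Cenpa (0.792) and Zswim6 (0.771). Pou3f2, a neural transcription factor, and Draxin, an axon guidance protein, were on none of the lists. Cdca2, Neil3, Pclaf and Zswim6 were on none of the lists either.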

How the data were processed

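Bulk RNA from 15 brain regions was sequenced with unstranded Smart-seq2 and Nextera XT libraries, per the labels' protocols. The deposited values are raw counts of reads per gene, unnormalised, in 1 table over the 847 libraries. Per the submitters' processing notes, the tools named are Trim Galore 0.3.7, STAR 2.5.3a and DESeq2, with build GRCm38; the counting program and annotation are not given in the sources used here. Gene positions come from GENCODE M21 and promoter windows from RefSeq.

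CPM were computed from the deposited totals. Tests used edgeR 4.0.16 (quasi-likelihood, TMM factors, filterByExpr on age and sex groups) in R 4.3.3, with Benjamini-Hochberg adjustment over all genes of a region or pair of regions and a threshold of 0.05. Age was fitted in months, or as a factor against 3 months, with sex as a term. Pairs of regions were fitted with age and sex, and slopes with an age by region term, with region added to the groups of the filter. A summed slope is a least-squares fit of log2(summed CPM with TMM + 0.5), without a test. Sexes were compared at 3 to 21 months. The edgeR code was tested on simulated data. Same-numbered libraries come from the same mouse. Their deviations from group means correlated with those in subventricular zone at a median of -0.042 (choroid plexus) to 0.26 (caudate putamen), and the mouse as a block was an alternative.

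All 8 genes are named. The genes most like them are the 10 with the highest correlation of log2(CPM + 0.5) with the sum over region means, and the 10 over subventricular zone residuals, among genes of at least 1 CPM there. From each other list the 3 largest called changes in each direction at 1 CPM or more in subventricular zone are named, except items that are not reported here. The genes and lists were chosen with earlier results of these data known. Alternatives were RLE factors, no filter, DESeq2 1.42.0, covariates, subsets of mice and leaving out single replicates (each in subventricular zone, those of 3, 26 and 28 months in corpus callosum). Figures were drawn with Python 3.11.15 and matplotlib 3.10.9. Counts of 0 allow up to 3 reads. Limits of this kind cover counting error only.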

Additional observations from a re-analysis of the deposited data

Results flagged for a closer look

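In 15 of 165 groups of 4 to 10 libraries, 1 library lay far from the rest, where chance gives about 1 in 20. High summed levels of the 8 genes in cerebellum were 48.2 CPM in mouse 25 (3 months, next 24.3 CPM) and 37.8 CPM in mouse 27 (18 months, next 18.2 CPM). In olfactory bulb they were 36.0 CPM in mouse 46 (15 months), 33.2 CPM in mouse 51 (18 months) and 34.0 CPM in mouse 11 (26 months). These 5 libraries are among those with at least 100 CPM of the granulocyte list, and the part of that list in the sums was not tested. Pons of mouse 50 was also high (15 months, 23.6 CPM). Low sums were 10.8 CPM in choroid plexus of mouse 15 (12 months), 9.73 CPM in medulla of mouse 43 (18 months), 12.4 CPM in pons of mouse 3 (12 months) and 7.57 CPM in thalamus of mouse 17 (3 months). Ccnb1 in corpus callosum was high in mouse 33 (3 months, 10.9 CPM, next 6.45) and mouse 23 (18 months, 6.57 CPM, next 3.28). In subventricular zone mouse 44 (21 months) was high in Ccnb1 (8.45 CPM, next 3.38) and Ube2c (6.83 CPM, next 2.23), and mouse 14 (26 months) had 0 CPM of Nusap1 in a shallow library.

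The slope with age differed between regions in 15 tests, all steeper in the region named first. Subventricular zone minus motor cortex gave -0.102 for Mki67, -0.0485 for Nusap1 and -0.0248 for Ccna2 (log2 per month), and minus olfactory bulb -0.0481 for Nusap1 and -0.0186 for Ccna2. Corpus callosum minus motor cortex gave -0.115 for Mki67, -0.0667 for Birc5, -0.0456 for Nusap1 and -0.0252 for Ccna2. Minus olfactory bulb it gave -0.0751 for Mki67, -0.0690 for Ube2c, -0.0445 for Nusap1 and -0.0180 for Ccna2, and minus anterior hippocampus -0.0522 for Mki67 and -0.0207 for Ccna2. Mki67 and Birc5 did not pass the filter in motor cortex alone, so their differences from that region rest on the joint fits.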

How the results depend on the processing

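The calls in subventricular zone and corpus callosum were fewer without the 3-month libraries. In that alternative, added after seeing the data, 1 of 8 members was called in subventricular zone, 3 of 8 in corpus callosum and 5 over the 15 regions, against 8, 8 and 23 with all ages. Ccnb1 in motor cortex then had a slope of 0.0037. Over the other settings, leaving out each of the 55 mice of subventricular zone gave 7 to 8 members there, leaving out each of the 17 mice of 3, 26 and 28 months in corpus callosum gave 8 (the other mice of that region were not left out), and the 15 regions gave 19 calls (males alone) to 29 (no filter). Against 3 months in subventricular zone, males alone gave 7 and leaving out each mouse 5 to 23 calls (17 in all mice), and in corpus callosum males alone gave 26 (41 in all). For slope differences of subventricular zone, mice 16 to 56 alone gave 1 (5 in all), and for sex, 12-month mice alone gave 0 (1 in all). Without Ccna2 the summed slope in subventricular zone was -0.0769 (-0.0518 with it), and leaving out each mouse gave -0.0551 to -0.0458. Mki67 in visual cortex reversed to -0.0315 with the marrow list as a covariate and to -0.0284 without libraries above 100 CPM of that list. The causes of these shifts were not tested. Of 552 values for single genes over settings in subventricular zone, 543 kept their direction and call and 9 lost the call. In corpus callosum 227 of 232 kept them and 5 lost the call. Most of these values come from leaving out 1 mouse at a time (55 fits in subventricular zone and 17 in corpus callosum). Such fits share nearly all libraries with the main fit, so the high shares kept are largely given by them.

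With the replicate block, which pairs libraries of the same mouse, subventricular zone gave 109 level calls (110 without it) and 4 slope calls (5), and corpus callosum 93 level calls (92) and 8 slope calls (10). Depth limits the low genes: Ccnb1 and Ube2c were left untested in 10 regions each, Cdk1 in 8, Birc5 in 7, Mki67 in 3 and Top2a in 2.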
